A study of Rattus norvegicus with 4 samples.

Results

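From 3 families of LIM proteins, 10 genes were followed in neonatal rat ventricular cardiomyocytes. They were the FHL genes Fhl1, Fhl2 and Fhl3, the CSRP genes Csrp1, Csrp2 and Csrp3, and the PDLIM genes Pdlim1, Pdlim3, Pdlim5 and Pdlim7. Other genes of these families, such as Pdlim2, Pdlim4 and Fhl4, were not among the 10. The 10 genes were chosen by gene name. Each gene was represented by the annotated open reading frame (ORF) with the most counts over the 4 libraries, which gave 10 genes of the 13694 that had an annotated ORF and 10 of the 18847 ORFs listed. The cells came from the cardiac ventricle of Sprague-Dawley rats at postnatal day 2. Of the 4 libraries, 2 came from untreated cells and 2 from cells given 20 µM of phenylephrine (PE) for 24 h. PE is an agonist of α1-adrenergic receptors and drives hypertrophic growth of these cells in culture. The labels name no genetic change, and both groups were grown in medium with fetal bovine serum after a plating step meant to remove cells that are not cardiomyocytes. The readout was ribosome profiling, in which fragments of RNA protected by ribosomes are sequenced and counted on ORFs. A value therefore reflects how much mRNA was present as well as how heavily it was translated, and these were not separated here.

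LIM domains are paired zinc fingers that bind other proteins. FHL proteins consist almost wholly of LIM domains and work both at the sarcomere, where Fhl1 and Fhl2 bind titin, and in the nucleus as cofactors of transcription factors. CSRP proteins carry a pair of LIM domains joined by glycine-rich stretches. Csrp3, also called muscle LIM protein, belongs to striated muscle and is placed at the Z-disc, the line that anchors thin filaments, while Csrp1 and Csrp2 are best known from smooth muscle. PDLIM proteins join a PDZ domain, which binds α-actinin, to a LIM region at the other end, and so tie signalling proteins to the Z-disc and to actin stress fibres. Mutations of FHL1 and CSRP3 cause inherited muscle or heart muscle disease, and deletion of Csrp3 in mice leads to dilated cardiomyopathy.

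The libraries held between 11446574 and 13827599 counts over all ORFs. Sampling noise alone did not account for the difference between libraries of 1 group (chi-square per degree of freedom 1.61 in control and 1.60 in PE), and each library was kept as a separate sample. The labels do not say whether the libraries came from separate cultures, so the p-values may rest on technical spread alone. Of 11 markers of cardiomyocytes found among the ORFs none was at 0, and their summed level was 71429 and 71491 CPM (counts-per-million) of the library total in control and 79004 and 79195 in PE. Of these 11 markers 4 were called higher and 7 lower, with a median log2 fold change of -0.06. Without Nppa, the atrial natriuretic peptide gene, their sum was 66385 and 66599 CPM in control and 61478 and 61657 CPM in PE. Among these markers the log2 fold change of Myh6 was -1.31, from counts that covered a small part of its footprints. That of Myh7, the largest marker, was -0.06. Markers of other cells were measured too. The 10 fibroblast markers summed to 35209 and 35471 CPM in control and to 20816 and 20926 in PE, and the 8 smooth muscle markers to 1883 and 1887 in control and 1638 and 1625 in PE. The 7 endothelial markers summed to 235 and 227 in control and 132 and 137 in PE, and the 8 macrophage markers to 465 and 444 in control and 291 and 280 in PE. None of the markers in these 4 lists was at 0 over all libraries, although Col1a2 had 2 counts. The sums do not stand for every marker. Postn, Col1a1 and Col3a1, the largest fibroblast markers in control, fell, while Dcn rose by 0.70 on the log2 scale. Lum and Thy1 were not called. Of the smooth muscle markers Cnn1 rose by 2.19 and Synpo2 by 0.36, and of the endothelial markers Egfl7 rose by 1.06. In such mixed cultures fewer cells of a type and less RNA per cell cannot be told apart. The part of these markers in the results on LIM proteins was not tested.

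Of the 10 LIM protein genes 9 were higher after PE, and Fhl2 was lower. Together they held 2302 and 2306 CPM of the library total in control and 3753 and 3774 CPM in PE. These sums leave out most footprints of Fhl1, Csrp2 and Csrp3, as described below. The 9 increases ran from 0.53 on the log2 scale for Pdlim7 to 1.34 for Csrp2, and the fall of Fhl2 was 1.49-fold. All 10 passed the quasi-likelihood test of edgeR at an adjusted p of 0.05, with Benjamini-Hochberg adjustment over the 12609 ORFs that were tested. In that test 21.4% of all ORFs were called higher and 21.3% lower. The median log2 fold change was 0.89 over the 10 genes and -0.01 over the 11286 genes with a tested annotated ORF. Both PE libraries lay above both control libraries for the 9 genes that rose, which held for 34.4% of all ORFs tested, and both lay below them for Fhl2, which held for 34.3%. Against a change of at least 1.5-fold, tested with edgeR's glmTreat, 7 of the 10 were called higher, where 3.64% of all ORFs were. None of the 10 was called lower there, where 4.36% of all ORFs were. Fhl2, Fhl3 and Pdlim7 did not pass that stricter test. Among all 11286 genes the changes of Csrp2, Fhl1 and Pdlim5 stood at the 98.3rd, 98.0th and 96.4th percentiles.

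**Figure D1:**
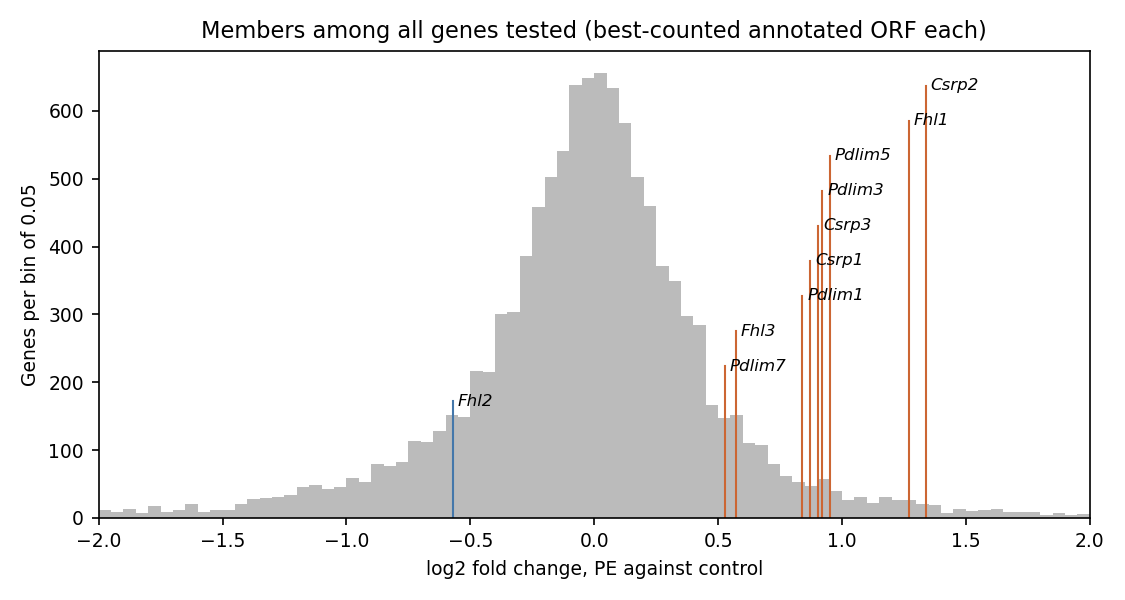
Histogram of the log2 fold change of PE against control (x axis) over 11286 genes, each by its annotated ORF with the most counts, with the number of genes per bin of 0.05 on the y axis. Vertical lines mark the 10 LIM protein genes, 9 of them right of 0.5 and Fhl2 at -0.57. Line height carries no value, and 161 genes outside the range from -2 to 2 are not drawn.

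How much of an ORF the count matrix holds differed among the genes. The deposited annotation gives each ORF's P-sites, the footprint positions assigned to the ribosome's peptidyl site, pooled over libraries. The 7 genes with 1 listed annotated ORF had 1.13 to 1.40 counts per P-site. The 3 genes with 2 listed annotated ORFs, Fhl1, Csrp2 and Csrp3, had 0.0405 to 0.219. Over all genes the median was 1.17 for the 12480 genes with 1 annotated ORF and 0.115 for the 1214 with more. Counts of Fhl1, Csrp2 and Csrp3 thus covered a small part of their footprints. Without these 3, 6 of 7 genes were higher and 1 lower, where 21.4% of all ORFs tested were higher and 21.3% lower. Of these 7 only Csrp1, Pdlim1, Pdlim3 and Pdlim5 passed the 1.5-fold test.

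**Figure D2:**
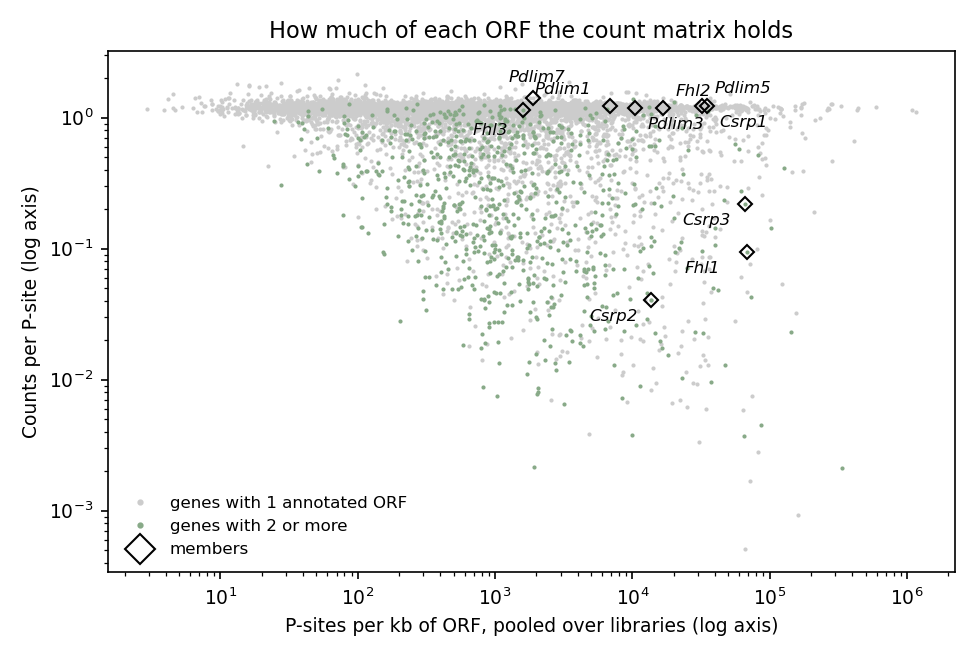
Counts per P-site (y axis, log) against P-sites per kilobase of ORF pooled over libraries (x axis, log), 1 point per tested gene, grey for genes with 1 annotated ORF and green for genes with more. Diamonds mark the LIM protein genes, of which 7 lie in the band above 1 and Csrp3, Fhl1 and Csrp2 lie below it at 0.219, 0.0938 and 0.0405.

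Per length of ORF, P-sites gave an order that does not depend on the count matrix. Fhl1 was highest with 68456 P-sites per kilobase, followed by Csrp3 with 66232. Csrp1 and Pdlim5 came next with 34905 and 32197. Fhl1, Csrp3 and Csrp1 stood above 98% of the 15034 annotated ORFs, and Pdlim5 stood at the 98.0th percentile. The middle of the order was held by Fhl2 with 16741, Csrp2 with 13724, Pdlim3 with 10371 and Pdlim1 with 6824 P-sites per kilobase. Pdlim7 with 1902 and Fhl3 with 1596 were lowest, at the 73.1st and 69.7th percentiles. P-sites are given over all libraries together, so neighbours in this order have no spread to be compared with. Between 81.0% and 86.2% of the P-sites of each of the 10 ORFs were in the reading frame of the ORF. 

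**Figure D3:**
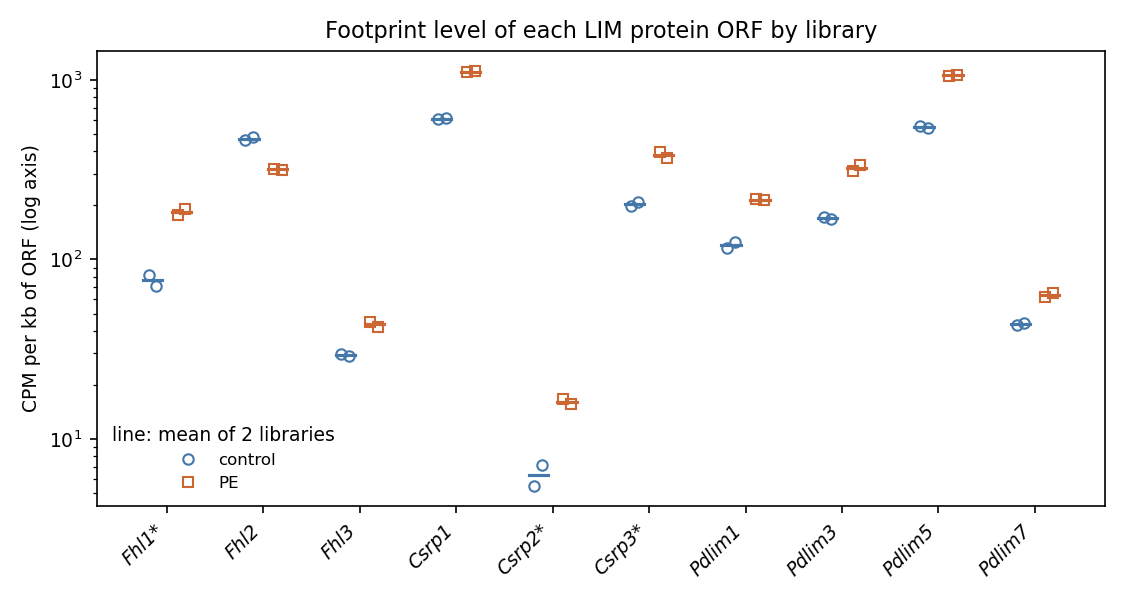
CPM per kilobase of ORF (y axis, log) for each of the 10 LIM protein genes (x axis), with control libraries as circles, PE libraries as squares and the mean of 2 libraries as a line. The groups are apart for every gene, and Fhl2 is the gene whose PE libraries lie below control. Asterisks mark the 3 genes with under 0.5 counts per P-site and hence a small part of their footprints in the counts.

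Within the FHL family Fhl2 was lower after PE, while Fhl1 and Fhl3 were higher. Fhl2 (ENSRNOG00000016866, Rnor_6.0 chromosome 9, 49921053 to 49950071, minus strand, the span of the coding exons with introns) encodes a protein of 279 residues that acts as a cofactor of several transcription factors and binds titin in heart muscle. Its level, in CPM scaled with TMM factors as for all single genes here, was 385 and 403 CPM in the control libraries and 266 and 265 CPM in the PE libraries. Both PE libraries were thus lower than both controls, and they differed by about 1 CPM. The mean fell from 394 ± 13.0 to 266 ± 0.752 CPM (SD, n = 2), and the log2 fold change was -0.57 ± 0.03 (SE, edgeR adjusted p = 6.2e-17). Among the 11286 genes this change lay at the 11.8th percentile. Of the markers tested, 7 of 11 for cardiomyocytes, 6 of 9 for fibroblasts and 6 of 8 for smooth muscle were lower after PE. So were 4 of 7 for endothelial cells and 6 of 8 for macrophages. In the same order 4, 1, 2, 1 and 0 markers were higher. Over all genes tested 22.8% were lower and 22.3% higher. The part of the markers in the fall of Fhl2 was not tested.

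Fhl1 (ENSRNOG00000000875, chromosome X, 159158277 to 159171183, plus strand), a scaffold of skeletal and heart muscle that binds titin and kinases of the MAP kinase cascade, went the other way. The ORF with most counts, of 296 residues, had 72.7 and 63.5 CPM in control and 156 and 170 CPM in PE. The PE libraries were more than 2-fold above the controls, with a 2.41-fold increase and a log2 fold change of 1.27 ± 0.06 (SE, edgeR adjusted p = 5.8e-19). The gene's other ORF, of 339 residues, shares the first 246 residues. It had 34 and 28 counts in control and 71 and 66 in PE and rose by 1.21 ± 0.26 on the log2 scale (edgeR adjusted p = 2.9e-04). Both ORFs of Fhl1 were thus higher after PE, each from few of its footprints, with 0.0938 counts per P-site for the first and 0.00366 for the other. The zinc-binding pattern of a LIM domain was found 4 times in the first protein and 3 times in the other. Fhl1 shared 14 runs of 10 residues with Fhl4, so reads could also be split between these genes.

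Fhl3 (ENSRNOG00000007541, chromosome 5, 142693648 to 142695724, plus strand), a related protein of 288 residues best known from skeletal muscle, was the least abundant by P-sites of the FHL genes followed here. It had 25.8 and 25.0 CPM in control and 38.9 and 36.4 CPM in PE. The libraries of the groups did not overlap, and the increase was 1.48-fold, with a log2 fold change of 0.57 ± 0.09 (SE, edgeR adjusted p = 3.0e-06). Per length, Fhl2 had 15.4 and 16.7 times the level of Fhl3 in the control libraries and 7.07 and 7.52 times in the PE libraries. Fhl2 remained the more abundant of these 2 genes in every library. Counts of Fhl1 stood at 0.189 and 0.157 of those of Fhl2 in control and at 0.587 and 0.643 in PE. Fhl1 had 0.0938 counts per P-site and Fhl2 had 1.18, so these ratios are not those of all footprints. With 2 libraries against 2, an exact two-sided permutation test of such a ratio cannot go below p = 0.333, so no test of these ratios is given. The difference in log2 fold change was 1.84 between Fhl1 and Fhl2, with a combined SE of 0.06, and -1.14 between Fhl2 and Fhl3, with a combined SE of 0.09. At the protein level Fhl2 was 54.5% identical to Fhl3 and 48.0% to Fhl1, counted over the shorter protein.

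The sequence before the starts of the 10 genes was examined for motifs of factors with known roles in muscle. RefSeq windows of 300 bases (GRCr8, 250 before to 50 after a start) were found for 8 of the 10 genes, with 10 windows in all. Windows for Csrp3 and Pdlim3 were not used here. The CArG box, the binding motif of serum response factor, was present in both Fhl2 windows and in 1 of 2 Fhl1 windows, and in none of the other 7. Of all 33469 windows 1.64% held it. The 250 bases before these 3 starts are shown 5′ to 3′ on the strand of the gene, with the CArG box in capitals, since they are the LIM protein windows that hold it. They lie on GRCr8 at chr9:52954541-52954790 (minus strand) and chr9:52923327-52923576 (minus strand) for Fhl2 and at chrX:139638246-139638495 (plus strand) for Fhl1.
Fhl2, first start: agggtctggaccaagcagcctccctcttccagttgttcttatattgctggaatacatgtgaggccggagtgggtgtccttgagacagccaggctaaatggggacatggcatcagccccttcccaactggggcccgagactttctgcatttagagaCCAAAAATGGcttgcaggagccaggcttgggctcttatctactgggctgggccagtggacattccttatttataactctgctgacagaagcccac
Fhl2, second start: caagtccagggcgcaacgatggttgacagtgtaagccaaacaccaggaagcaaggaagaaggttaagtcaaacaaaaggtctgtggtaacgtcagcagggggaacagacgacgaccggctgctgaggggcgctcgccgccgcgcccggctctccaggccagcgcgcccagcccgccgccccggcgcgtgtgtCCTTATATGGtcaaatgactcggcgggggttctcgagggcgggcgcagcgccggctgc
Fhl1: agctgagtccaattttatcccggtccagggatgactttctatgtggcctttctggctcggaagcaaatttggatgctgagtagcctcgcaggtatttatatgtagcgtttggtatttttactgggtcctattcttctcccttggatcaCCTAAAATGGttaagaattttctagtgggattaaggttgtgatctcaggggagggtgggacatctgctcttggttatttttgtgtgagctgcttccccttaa
The box lay 95 to 86 bases before the first Fhl2 start, 58 to 49 before the second and 102 to 93 before the Fhl1 start. The MCAT element CATTCC, searched on both strands, was found in the first Fhl2 window, 36 to 31 bases before the start, and in 14.2% of all windows. The MEF2 box, taken with either pyrimidine first and either purine last, was also found in the first Fhl2 window, 30 to 21 bases before the start, and in 3.29% of all windows. Its narrower form with C first and G last (0.565% of all windows) and the AP-1 motif TGANTCA (7.33%) had no match in the 10 windows, on either strand. A match describes letters in a window and does not show that a factor was bound. Of the 2 genes with a box, Fhl1 was higher and Fhl2 lower after PE.

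The CSRP genes were all higher after PE. Csrp1 (ENSRNOG00000008937, chromosome 13, 52563698 to 52573995, plus strand), an actin-bundling protein of 193 residues that also occurs in smooth muscle and fibroblasts, had 351 and 354 CPM in control and 644 and 645 CPM in PE. The libraries of each group were nearly the same and the groups were far apart. Csrp1 rose 1.83-fold, with a log2 fold change of 0.87 ± 0.02 (SE, edgeR adjusted p = 1.4e-24). Among the 8 smooth muscle markers, 6 were lower after PE and Cnn1 and Synpo2 were higher. In Cnn1, which encodes calponin 1, the log2 fold change was 2.19. Lmod1 was lowest at -1.18, and the median of the 8 was -0.65. Of 9 fibroblast markers tested, 6 were lower and 1 was higher.

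Csrp3 (ENSRNOG00000014327, chromosome 1, 104147429 to 104157826, minus strand), the muscle LIM protein, had 116 and 121 CPM in control and 231 and 214 CPM in PE. Both PE libraries lay above both controls, and the gene rose 1.87-fold, by 0.90 ± 0.04 on the log2 scale (SE, edgeR adjusted p = 4.2e-18). Its ORF of 194 residues had 0.219 counts per P-site. The gene's other ORF, of 191 residues, begins with the same 169 residues, had 31553 P-sites where the first had 38547, and was given 0 counts in every library. With 2 ORFs that share most of their length, the level of Csrp3 in CPM is that of a part of its footprints. The change of Csrp1 differed from that of Csrp3 by -0.03 on the log2 scale, with a combined SE of 0.05, which is within the error.

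Csrp2 (ENSRNOG00000003772, chromosome 7, 53642110 to 53649099, plus strand), a LIM protein of smooth muscle and of mesenchymal cells, rested on few counts. Its ORF of 193 residues had 37 and 58 counts in control and 115 and 112 in PE, or 3.19 and 4.14 CPM against 9.61 and 9.10 CPM. The PE libraries were higher than both controls, and the log2 fold change was 1.34 ± 0.20 (SE, edgeR adjusted p = 1.7e-06), a 2.53-fold increase. Only 0.0405 counts per P-site were assigned, and the other ORF of 184 residues, with the same first 169, had 6727 P-sites and 0 counts. Csrp1 and Csrp2 were 80.3% identical over the protein and shared 28 runs of 10 residues, the most of any pair among the 10. How reads that fit more than 1 gene were counted is not given in the sources used here, so the split between Csrp1 and Csrp2 is uncertain where their sequences match. The change of Csrp1 minus that of Csrp2 was -0.47, with a combined SE of 0.20.

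All 4 PDLIM genes followed here were higher after PE. Pdlim5 (ENSRNOG00000016419, chromosome 2, 247818276 to 247985529, minus strand), also called ENH, links protein kinase C and protein kinase D to the Z-disc. It supplied 46.6% of the counts of the 10 genes, but these counts leave out most footprints of Fhl1, Csrp2 and Csrp3. By P-sites Pdlim5 had 57086 of the 219102 of the 10 genes, and Fhl1 had 60789. The level of Pdlim5 was 979 and 961 CPM in control and 1863 and 1890 CPM in PE, so the groups were far apart relative to the libraries within them. The log2 fold change was 0.95 ± 0.02 (SE, edgeR adjusted p = 4.2e-29). The ORF encodes 591 residues with 3 matches to the zinc-binding pattern of a LIM domain, which makes it a long form that carries the LIM region. It shared 18 runs of 10 residues with Ldb3 and 7 with Pdlim7. Short forms of Pdlim5 without LIM domains are known, and 1 annotated ORF of Pdlim5 was listed.

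Pdlim3 and Pdlim1 are the short, ALP-type members, with 1 match to the LIM pattern each. Pdlim3 (ENSRNOG00000012658, chromosome 16, 49543544 to 49574241, minus strand), the α-actinin-associated LIM protein of striated muscle, had 164 and 159 CPM in control and 295 and 317 CPM in PE. It rose 1.89-fold, by 0.92 ± 0.04 on the log2 scale (SE, edgeR adjusted p = 5.3e-20), with no overlap of the groups. Pdlim1 (ENSRNOG00000016166, chromosome 1, 259308667 to 259356940, minus strand), also called CLP36, is found at stress fibres of many cell types. It had 113 and 122 CPM in control and 212 and 210 CPM in PE, all PE values above all controls. The increase was 1.79-fold, with a log2 fold change of 0.84 ± 0.04 (SE, edgeR adjusted p = 1.7e-17).

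Pdlim7 (ENSRNOG00000013653, chromosome 17, 9654582 to 9668462, plus strand), known as Enigma, had the lowest level of the PDLIM genes followed here. Like Pdlim5 it had 3 matches to the LIM pattern, and the 2 proteins were 51.0% identical over the shorter one. It had 59.5 and 60.9 CPM in control and 84.9 and 88.8 CPM in PE. The groups did not overlap, and the rise was 1.44-fold, or 0.53 ± 0.06 on the log2 scale (SE, edgeR adjusted p = 4.7e-09). The change of Pdlim5 exceeded that of Pdlim7 by 0.42, with a combined SE of 0.06. The changes of Pdlim5 and Pdlim3 differed by -0.03 with a combined SE of 0.04 (Pdlim3 minus Pdlim5), and those of Pdlim1 and Pdlim3 by -0.08 with a combined SE of 0.06 (Pdlim1 minus Pdlim3), and both differences lay within 2 combined SEs. Pdlim1 minus Pdlim5 was -0.11 with a combined SE of 0.05, which is more than 2 combined SEs. These SEs treat the 2 ORFs of a pair as independent, and no adjustment was made for the number of pairs. Without control replicate 1 Pdlim1 and Pdlim5 changed by 0.785 and 0.961 on the log2 scale. Without control replicate 2 they changed by 0.895 and 0.936.

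For the genes followed here, the share of each in the sum of its family was read per length. Each sum holds these genes alone and leaves out relatives such as Pdlim2, Pdlim4, Ldb3 and Fhl4. In CPM per kilobase, Pdlim5 made up 62.4% and 61.7% of the PDLIM sum in control and 64.1% and 63.5% in PE. Pdlim3 made up 19.6% and 19.1% in control and 19.0% and 19.9% in PE, where the libraries of the groups overlapped. Pdlim7 went from 4.91% and 5.05% to 3.78% and 3.86%. In the CSRP family, Csrp1 held 74.7% and 73.9% in control and 72.9% and 74.4% in PE, also with overlap. Csrp2 held 0.678% and 0.865% in control and 1.09% and 1.05% in PE, with the groups apart. In the FHL family, Fhl2 held 80.5% and 82.8% in control and 59.0% and 57.5% in PE. These shares of FHL and CSRP come from counts that leave out most footprints of Fhl1, Csrp2 and Csrp3. Neither a share nor the size of its shift is therefore that of all footprints. By P-sites per kilobase Fhl1 stood above Fhl2, with 68456 against 16741.

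Genes of the same domain family gave a comparison. A list of 39 other LIM proteins of muscle and adhesions had 35 members among the ORFs, all of them tested. Of these 9 were higher, 7 lower and 19 not called, with a median log2 fold change of -0.01, which is that of all genes tested. Calls over all genes tested were 22.3% higher and 22.8% lower. Lmcd1, a LIM and cysteine-rich protein of heart that acts on GATA6 and calcineurin signalling, rose from 46.0 ± 1.22 to 94.1 ± 2.26 CPM (SD, n = 2), by 1.03 ± 0.06 on the log2 scale (± SE here and for the next genes). Ajuba, an adaptor of adherens junctions and Hippo signalling, rose by 0.80 ± 0.09, Prickle2, of planar cell polarity, by 0.68 ± 0.14, and zyxin (Zyx), a focal adhesion protein that binds CSRP proteins, by 0.44 ± 0.03. The lowest of those called were Lpxn, a leukocyte relative of paxillin, at -0.78 ± 0.27, the Z-disc protein nebulette (Nebl) at -0.66 ± 0.02, Mical1, an actin-oxidising enzyme, at -0.59 ± 0.12, and Limd1 at -0.50 ± 0.09. The closest relatives of the PDLIM genes did not rise. Ldb3, the Z-disc PDZ and LIM protein also called ZASP or Cypher, had 383 ± 4.55 CPM in control and 342 ± 8.28 CPM in PE (SD, n = 2) and fell by 0.17 on the log2 scale (edgeR adjusted p = 9.6e-06). Ldb3 had 0.606 counts per P-site, where the median of genes with 1 annotated ORF was 1.17. Pdlim2 at -0.15 ± 0.17 and Pdlim4 at -0.05 ± 0.20 did not pass. Ldb3, Pdlim2 and Pdlim4 were named here after their values were seen.

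Binding partners reported for the LIM proteins were also read from the fit. Of 27 genes 25 were listed and tested, with 11 higher, 5 lower and 9 not called, and a median log2 fold change of 0.09. Over all genes tested 22.3% were higher and 22.8% lower. Desmin (Des), the intermediate filament around the Z-disc, rose by 0.93 ± 0.01 on the log2 scale (SE), α-actinin 1 (Actn1), a nonmuscle form that PDLIM proteins bind, by 0.66 ± 0.03, muscle cofilin (Cfl2), which Csrp3 binds, by 0.62 ± 0.04, and the MAP kinase kinase Map2k1 by 0.61 ± 0.04. The sarcomeric α-actinin Actn2, the partner at the Z-disc, had 3963 ± 8.28 CPM in control and 3799 ± 17.3 CPM in PE (SD, n = 2), and its log2 fold change of -0.06 ± 0.01 (SE) passed (edgeR adjusted p = 3.9e-04). Actn2 was named after its value was seen. The lowest of those called were protein kinase D1 (Prkd1) at -0.48 ± 0.14, serum response factor (Srf) at -0.30 ± 0.10, myosin-binding protein C (Mybpc3) at -0.29 ± 0.02 and talin 1 (Tln1) at -0.12 ± 0.02. The integrin Itga7 had the highest change of the list, 1.09, from 0.0720 counts per P-site. Zyx and Nrap stand in both lists.

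**Figure D4:**
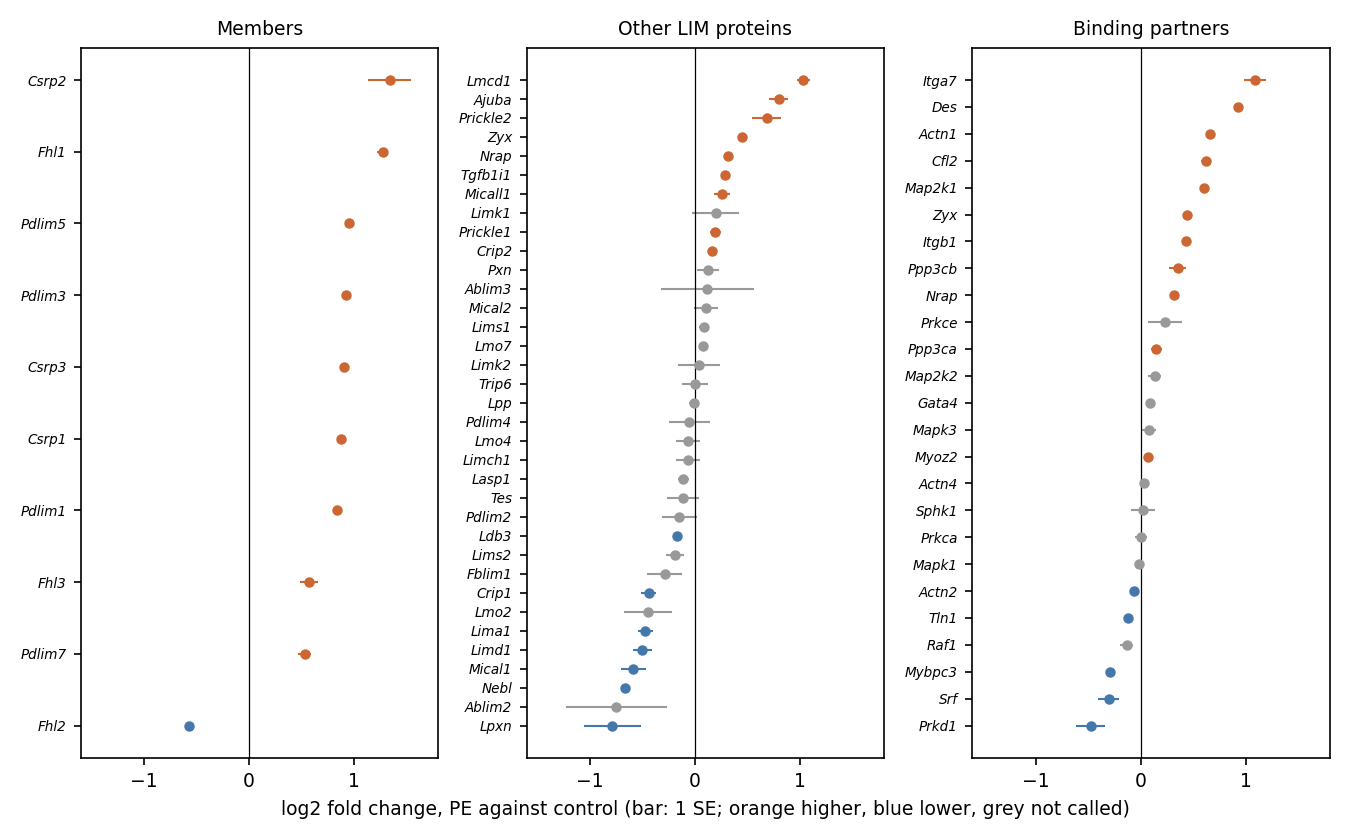
Log2 fold change of PE against control (x axis, bars 1 SE) for the 10 LIM protein genes, 35 other LIM proteins and 25 reported binding partners, 1 gene per line, orange where called higher, blue where called lower and grey where not called. In the left panel 9 of the 10 genes lie right of 0, while the middle panel is spread around 0 with 9 higher and 7 lower.

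Among the genes whose pattern over the 4 libraries was most like that of Pdlim5 were Zwint and Tsc22d1. Likeness was the Euclidean distance between log2 CPM values centred on their mean over the 4 libraries, among 1740 annotated ORFs with a mean of at least 100 CPM, and Pdlim5 was taken because its change was the largest among the LIM protein genes with at least 0.5 counts per P-site. The distances were 0.0239 for Zwint and 0.0348 for Tsc22d1. Zwint, a kinetochore protein, had 147 and 148 CPM in control and 284 and 288 CPM in PE. With 4 libraries in 2 groups, such a likeness is mostly that of the fold change.

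The authors' deposited table of DESeq2 results gave the same directions for all 10 genes. In the authors' deposited table the log2 fold change was -0.57 for Fhl2 and 1.27 for Fhl1. It was 0.87 for Csrp1, 0.91 for Csrp3 and 0.95 for Pdlim5 in the authors' deposited table. Among the 10 genes the largest adjusted p in the authors' deposited table was 2.3e-04, for Fhl3.

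**Figure D5:**
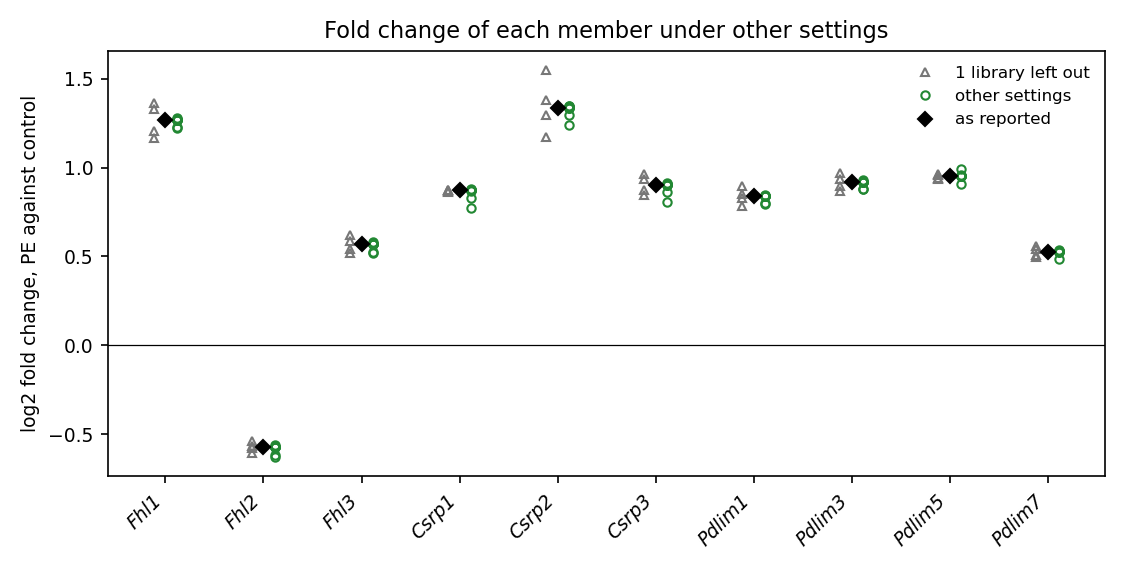
Log2 fold change of PE against control (y axis) of each LIM protein gene (x axis) as reported (black diamonds), with 1 library left out (grey triangles) and under the other settings (green circles). No gene crosses 0, and Csrp2 has the widest range, from 1.17 to 1.55.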

How the data were processed

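The submitters' processing notes name the tools STAR 2.4.2a, Bowtie 1.1.2 and cutadapt 2.0 and the build Rnor_6.0. Which programs called and counted ORFs is not given in the sources used here. For each library the authors deposited a raw count of footprints on each ORF, and they added an annotation with P-site counts per ORF, pooled over libraries. Per the file headers, it also holds the authors' DESeq2 log2 fold changes with p-values. ORFs with 0 counts in every library numbered 3172. Groups were read from the titles, since 1 treatment text naming PE stands with all 4 libraries.

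After filterByExpr and TMM scaling (factors 0.982 to 1.02), the quasi-likelihood test of edgeR 4.0.16 with robust settings was run in R 4.3.3 over all 4 libraries without a replicate term, with Benjamini-Hochberg adjustment over all ORFs tested. Each SE was derived from the log2 fold change and its F statistic. The common coefficient of variation between libraries of a group was 2.18%, beyond counting error. Of the genes most like Pdlim5 by pattern, 1 is not reported here. LIM patterns and identities were computed from the deposited protein sequences.

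The 10 genes, the lists and the tests were chosen with earlier results of these data known. All 10 genes were named, and of the 2 lists of neighbours the 4 highest and 4 lowest genes past the threshold with a mean count of at least 20 and 0.5 counts per P-site. Alternatives were DESeq2 1.42.0, RLE factors, library totals, no filter, a replicate block, removal of a trend with ORF length, a 1.5-fold test, other ways to choose or sum ORFs, and leaving out each library.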

Additional observations from a re-analysis of the deposited data

How the results depend on the processing

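Each of the 10 genes kept its direction under the alternatives run, and each stayed past the threshold in all tests against no change. The largest adjusted p among those tests was 2.2e-04, for Fhl3. Against a 1.5-fold change, Fhl2, Fhl3 and Pdlim7 no longer passed, which left 7 genes higher and 0 lower. The number of calls over all ORFs was 5386 (2696 higher and 2690 lower). It fell with DESeq2 to 3445 (1724 higher and 1721 lower) and in the 1.5-fold test to 1009 (459 higher and 550 lower). Leaving out 1 library gave 4523 to 4754 calls over all ORFs, and the log2 fold change of Csrp2 then ranged from 1.17 to 1.55. The lone library left in a group was assumed to vary like the other group. With the replicate block 5435 ORFs were called, and all 10 genes kept their call. The labels give no pairing, and the deviations of same-numbered libraries had a correlation of 0.0117 across 9746 ORFs. Choosing the ORF with most P-sites changed no gene's ORF. Csrp2 had 37 to 115 counts per library, at 0.0405 counts per P-site, which limits its precision.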
